A study of Mus musculus with 10 samples.

Results

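ATP-binding cassette (ABC) transporters were examined in obstructed mouse kidneys given dimethyl malonate (DMM), an inhibitor of succinate dehydrogenase. The genes were all protein-coding genes whose symbol starts with Abc, then a family letter from a to g and a digit, which gave 50 of the 54532 genes listed. Tap1, Tap2 and Cftr also encode ABC proteins but carry other symbols, and their values are given separately. All mice were wild-type (WT) male C57BL/6 aged 8 weeks, and kidneys were taken 14 days after unilateral ureteral obstruction (UUO). The DMM group received 40 mg/kg DMM intraperitoneally every other day and the control group received PBS in its place. Bulk RNA sequencing of whole UUO kidneys gave a single library for each of 5 control and 5 DMM mice. Libraries held 15722527 to 19475833 counts, and ABC genes took between 0.215% and 0.362% of them. Sham-operated kidneys were not analysed here, so each value compares DMM with PBS within obstructed kidneys.

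ABC transporters use ATP to move substrates across membranes, usually outward from the cell or into an organelle. In the kidney, the brush border of proximal tubule cells carries pumps that send drugs, urate and conjugated metabolites into urine, after uptake carriers on the blood side have brought them in. Other members load fatty acids into peroxisomes, hand cholesterol to lipoproteins or work in mitochondria, and the E and F families have no membrane domain and act on ribosomes and translation.

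The libraries differed in ways that bear on every value. DMM replicate 4 (DMM 4) stood apart from the other 9 libraries. Its median absolute deviation from the median library was 0.60 log2 units over all tested genes and 0.78 over the ABC genes, against at most 0.19 and 0.29 in any other library. Control 3 and DMM 1 had a weight of 0 in the group means that the authors deposited, while the other 8 libraries had weights between 0.227 and 0.271. The reason is not given in the sources used here, and if these libraries were left out for their values, the calls over the 8 depend on that choice. Results are therefore given over all 10 libraries and over the 8 libraries that remain without control 3 and DMM 1. For some of the genes that DMM 4 moved, values without it are also given.

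Control 3 and DMM 1 were also placed unusually for proximal tubule genes. The summed normalized count of 8 proximal tubule markers (Lrp2 the most abundant, none at 0) was 1850, 1819, 4947, 663 and 1359 CPM in control 1 to 5. In DMM 1 to 5 it was 1272, 3709, 4113, 4530 and 5046 CPM. On this sum control 3 thus lay among DMM 2 to DMM 5, and DMM 1 among the other controls. The markers did not place DMM 4 alike. Lrp2 was at 2504 CPM there, against 913, 1189 and 1277 CPM in DMM 2, DMM 3 and DMM 5. Slc34a1, Slc5a2 and Miox, at 474, 36.4 and 87.2 CPM in DMM 4, were below control 1 and control 2. Lrp2, Cubn, Slc5a12, Slc13a3 and Acsm2 were above both. The 6 interferon response genes gave another order, with sums of 2879, 1577, 2010, 2799 and 2655 CPM in control 1 to 5 and of 2012, 254, 230, 237 and 194 CPM in DMM 1 to 5. On that list control 3 lay within the control range and DMM 1 did too.

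Over all 10 libraries, 0 of 40 tested ABC genes passed both thresholds of edgeR (adjusted p below 0.05, more than 1.5-fold), as did 0% of all 16505 tested genes. DESeq2 also called 0 ABC genes over these libraries, against 14 genes higher and 36 lower in all. The smallest adjusted p was 0.378 for any gene and 0.385 for an ABC gene. At an unadjusted p under 0.05 with the same fold change, 5 ABC genes were higher (12.5% of those tested, against 1.91% of all tested genes) and 1 was lower (2.5%, against 4.11%). The median log2 fold change of the 40 ABC genes was 0.14, against 0.02 over all tested genes. Values were higher in DMM kidneys for 33 of the 40, and for 8715 of all 16505 genes. Without DMM 4 the 33 became 28. Past the unadjusted thresholds, 1 ABC gene was then higher (2.5%) and 2 were lower (5%). Of all 16707 tested genes, 310 were higher and 713 lower in that fit. Scaling for library size only lowered both medians, to 0.05 for ABC genes and -0.06 for all genes, and the 33 became 24.

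Over the 8 libraries, 5 of 39 tested ABC genes were called higher in DMM kidneys (12.8%) and 0 were called lower, where 2.73% of all 16550 tested genes were called higher and 3.56% lower. The 5 were Abcc2, Abcg2, Abcd3, Abca3 and Abca13. At an unadjusted p under 0.05 and the same fold change, 12 were higher and 0 lower, where 1067 of all 16550 tested genes were higher and 1198 lower. Without DMM 4 as well, 8 were higher and 3 lower (1290 and 1614 of all 16828). Leaving out control 1 instead gave 8 and 1 (1018 and 1154 of all 16792), and control 2 gave 8 and 1 (960 and 1122 of all 16917). Leaving out DMM 2 gave 14 and 0 (1192 and 1358 of all 16923). Of the 39 tested ABC genes, 9 were higher with groups that did not overlap, against 1564 of all 16550 tested genes (9.45%). Of the same 39, 1 was lower without overlap, against 1760 of all 16550 (10.6%). The median log2 fold change was 0.20 for ABC genes and 0.02 for all tested genes. When counts were scaled by library size alone in place of TMM, the median of all genes shifted to -0.09, Abcg1 was called lower beside the same 5 genes, and the calls over all genes were 276 higher and 700 lower, against 452 and 590 with TMM.

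DMM 4 weighed on these counts. Without it, the remaining 7 of the 8 libraries gave 8 ABC genes called higher (20% of 40, against 6.71% of all 16828 tested genes) and 2 called lower (5%, against 7.61%). Abca4, Abcb1b and Abcc6 joined the 5 genes named above, and Abcg1 and Abcg3 were called lower. With control 3 and DMM 1 kept and DMM 4 left out, 9 libraries gave 0 calls among ABC genes and 0% among all 16707 tested genes. With DMM 1 alone left out, 0 ABC genes were called, beside 50 higher and 436 lower of all 16760 tested genes. Leaving out another of the 8 libraries gave between 3 and 5 called ABC genes, with 3 when control 2, control 4, control 5, DMM 3 or DMM 5 was left out. In these fits 131 to 377 of all tested genes were called higher and 276 to 572 lower. Abcc2, Abcg2 and Abcd3 were called in all 8 of these fits, Abca13 in 3 and Abca3 in 2.

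Pumps of drugs and conjugated metabolites formed the largest role group, and all 10 of its genes were tested. Abcc2 (chromosome 19, 43782192 to 43840740) encodes the apical pump MRP2, which exports glutathione, glucuronide and sulfate conjugates. Its normalized count was 113, 104, 213, 60 and 115 CPM in control 1 to 5. It was 91.7, 211, 233, 295 and 293 CPM in DMM 1 to 5. Control 3 stood with the DMM libraries and DMM 1 with the controls, so the groups overlapped over 10 libraries and not over 8. Over the 8, Abcc2 was 98.0 ± 25.8 (SD, n = 4) CPM in control and 258 ± 42.8 (SD, n = 4) CPM in DMM kidneys. It rose by 1.40 on the log2 scale there (standard error 0.22, edgeR adjusted p = 0.00875), higher in 4 of 4 DMM libraries than in any of the 4 controls. With all 10 libraries the value was 0.89 (standard error 0.36, edgeR adjusted p = 0.416), and over the 7 without DMM 4 it was 1.33.

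Abcg2 (chromosome 6, 58584523 to 58695676), the breast cancer resistance protein that exports urate and many drugs across the brush border, showed the same arrangement. Control 1 to 5 had 132, 129, 220, 102 and 139 CPM and DMM 1 to 5 had 120, 227, 229, 239 and 255 CPM. DMM 2 to DMM 5 lay close together above every control, with control 3 just under them and DMM 1 well below. Abcg2 had the smallest adjusted p of the ABC genes over the 8 libraries, with a log2 fold change of 0.92 (standard error 0.12, edgeR adjusted p = 0.00406), and DMM 4 did not move it, since it was also 0.92 without that library. Over all 10 it was 0.57 (standard error 0.24, edgeR adjusted p = 0.43).

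P-glycoprotein is made from a pair of mouse genes, Abcb1a and Abcb1b. Abcb1b had the smallest unadjusted p of any ABC gene over 10 libraries, 0.0133, with a log2 fold change of 0.73 (standard error 0.25, edgeR adjusted p = 0.385). It was measured at 8.10, 15, 15.1, 14.2 and 11.8 CPM in control 1 to 5 and 13.9, 18.2, 21.2, 34.2 and 19.2 CPM in DMM 1 to 5. Only DMM 1 lay within the control range, and DMM 4 was far above the rest. Its log2 fold change was 0.92 over the 8 libraries (edgeR adjusted p = 0.0707) and 0.67 without DMM 4 as well (edgeR adjusted p = 0.0293). DESeq2 on the 8 libraries called Abcb1b higher (DESeq2 adjusted p = 0.0145). Of the stretches of 50 bases in the longest Abcb1b transcript, 19.6% occur in transcripts of other genes, mostly Abcb1a, so its count is uncertain. Abcb1a itself had a log2 fold change of 0.12 over 10 libraries and 0.17 over 8.

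Abcc6, a pump of the basolateral membrane whose loss leads to mineral deposits in soft tissue, was scarce. Its normalized count was 3.55, 3.65, 4.22, 2.18 and 2.71 CPM in control 1 to 5 and 3.15, 4.35, 6.91, 3.68 and 6.81 CPM in DMM 1 to 5. DMM 3 and DMM 5 were high, and DMM 4 was level with control 2. On the log2 scale the fold change was 0.61 over 10 libraries (standard error 0.28, unadjusted p = 0.0494, edgeR adjusted p = 0.458), 0.85 over the 8 (edgeR adjusted p = 0.118) and 0.996 over the 7 without DMM 4 (edgeR adjusted p = 0.0158). The remaining pumps, Abcc1, Abcc3, Abcc4, Abcc5 and Abcc10, had log2 fold changes between 0.02 and 0.29 over 10 libraries. Over 9 libraries without DMM 4 they were at -0.05, 0.01, 0.10, 0.02 and 0.34 in that order, so the sign of Abcc1 turned. Abcc4, the apical exporter of cyclic nucleotides and urate, was between 96.5 and 121 CPM in controls and between 106 and 132 CPM in DMM kidneys except DMM 4, at 203 CPM. Abcc5 was nearly level, at 72.8 ± 3.21 (SD, n = 5) CPM in control and 73.9 ± 3.6 (SD, n = 5) CPM in DMM kidneys.

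Uptake and exchange carriers that act with these pumps in the proximal tubule, a list of 10 genes, were all higher in DMM kidneys over both sets of libraries. Over the 8 libraries 6 of the 10 were called higher, and over all 10 libraries 0 were. Slc17a1, a phosphate and urate carrier of the brush border, was at 1.42 over the 8 (edgeR adjusted p = 0.0062), and the organic cation carrier Slc22a2 was at 1.25. Of 8 tested receptors and regulators of xenobiotic and bile acid genes, 3 were called higher over the 8 libraries. These were Ppara at 1.73, the bile acid receptor Nr1h4 at 0.94 and Hnf4a at 0.88, while the pregnane receptor Nr1i2 was at 0.53 without a call. Over all 10 libraries Ppara, Nr1h4 and Hnf4a were at 1.17, 0.56 and 0.53 (edgeR adjusted p = 0.387, 0.493 and 0.482).

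**Figure D1:**
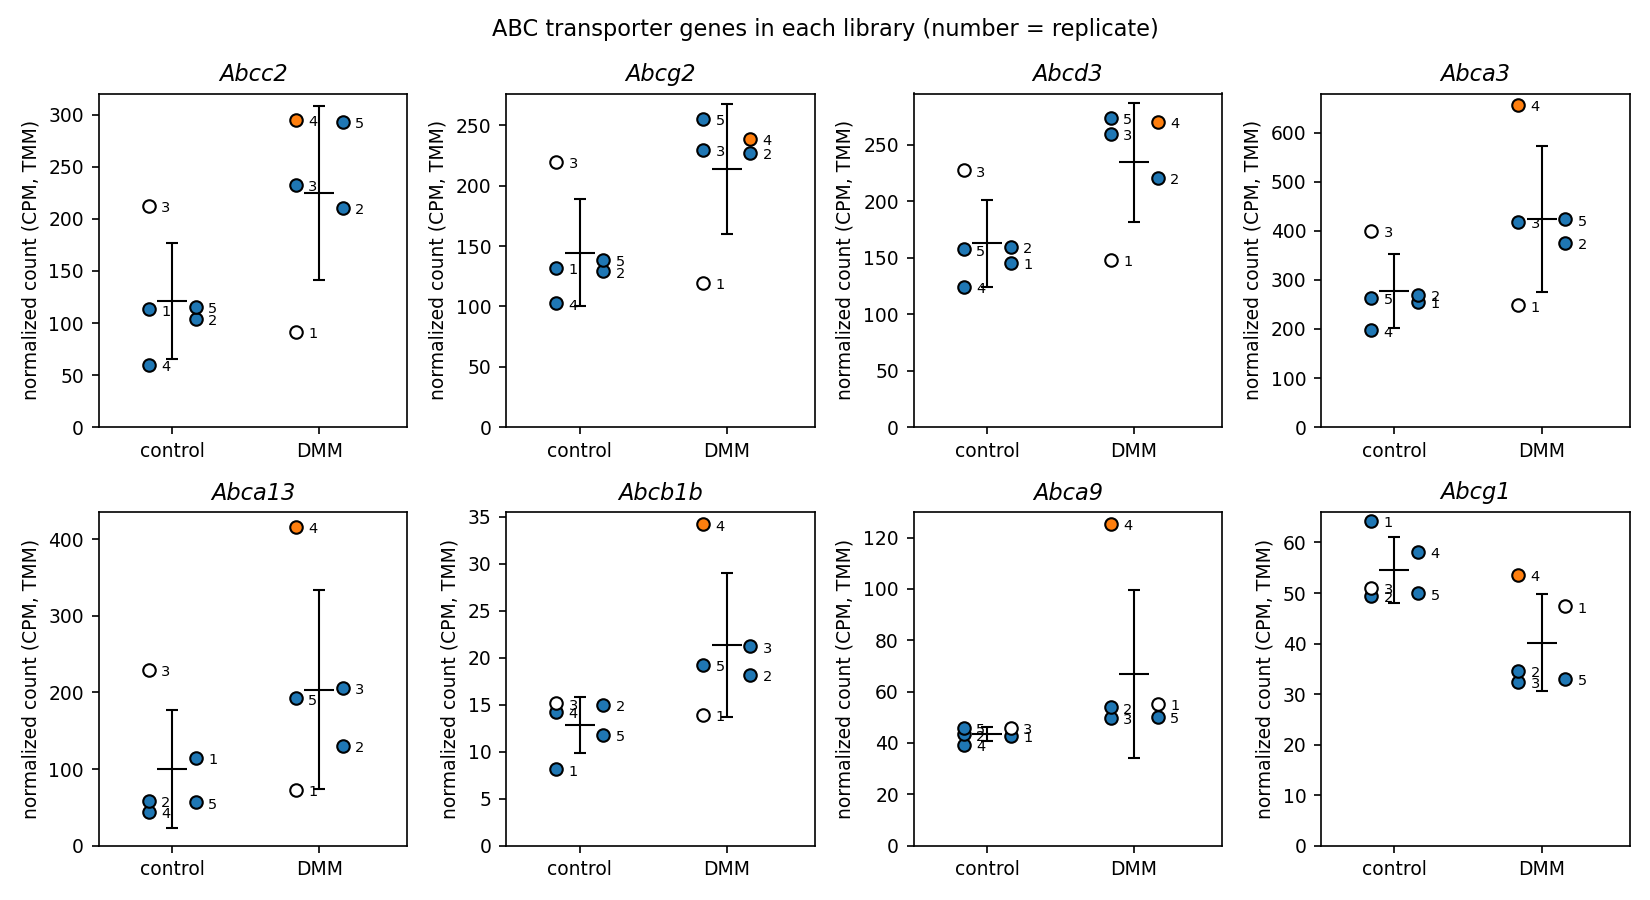
Normalized counts (CPM with TMM, vertical axes from 0) of 8 ABC genes in each library, with the replicate number beside each point and the mean ± SD of 5 libraries as a bar. Open points are control 3 and DMM 1 and the orange point is DMM 4. In Abcc2, Abcg2, Abcd3, Abca3 and Abca13 control 3 lies with DMM 2 to DMM 5 and DMM 1 with the other controls.

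Among the 3 peroxisomal transporters, Abcd3 (chromosome 3, 121758774 to 121815302) was the most abundant. It encodes PMP70, which carries long-chain and branched acyl-CoA and bile acid precursors into peroxisomes. Control 1 to 5 had 145, 160, 227, 124 and 157 CPM and DMM 1 to 5 had 148, 221, 260, 270 and 274 CPM. Control 3 lay above DMM 2, and DMM 1 lay inside the control range. Over the 8 libraries Abcd3 rose by 0.80 on the log2 scale (standard error 0.13, edgeR adjusted p = 0.00839), and over all 10 its log2 fold change was 0.53 (standard error 0.20, edgeR adjusted p = 0.403).

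The related Abcd2, a carrier of very-long-chain acyl-CoA, was at 1.35 to 4.73 CPM with overlapping groups. Of 10 other peroxisomal genes, 9 were higher in DMM kidneys over the 8 libraries and 2 were called, among them the acyl-CoA synthetase Acsl1 at 0.91 (edgeR adjusted p = 0.0292). The peroxins Pex3 and Pex19, which place PMP70 in the membrane, were at 0.26 and 0.14 over the 8. With all 10 libraries Acsl1 was at 0.62 (edgeR adjusted p = 0.42), and 0 of the 10 genes were called.

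Sterol exporters were not higher as a group. Abca1, which loads cholesterol onto apolipoprotein A-I, was second among the ABC genes in level per length (CPM per kilobase), at 30.8. It was measured at 350, 300, 271, 311 and 348 CPM in control 1 to 5 and 320, 268, 234, 526 and 268 CPM in DMM 1 to 5. DMM 2, DMM 3 and DMM 5 lay below every control, and DMM 4 lay far above all of them. Its log2 fold change was accordingly 0.03 over 10 libraries (standard error 0.21) and -0.02 over 8, and -0.35 over the 7 without DMM 4 (edgeR adjusted p = 0.0129), a difference under 1.5-fold.

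Abcg1 (chromosome 17, 31057698 to 31115777) passes cholesterol on to mature high-density lipoprotein and is abundant in macrophages; it is described after its values were seen. Its normalized count was 64.3, 49.4, 51.0, 58.1 and 49.9 CPM in control 1 to 5 and 47.3, 34.6, 32.5, 53.5 and 33.0 CPM in DMM 1 to 5. All DMM libraries except DMM 4, which lay among the controls, were below every control, DMM 1 only slightly. On the log2 scale the fold change was -0.44 over 10 libraries (standard error 0.16, edgeR adjusted p = 0.388), -0.53 over the 8 (edgeR adjusted p = 0.131) and -0.73 over the 7 (edgeR adjusted p = 0.00123). The 6 macrophage markers, with C1qb the most abundant and none at 0, summed to 1264, 1180, 1021, 1197 and 1367 CPM in control 1 to 5 and to 1084, 800, 666, 662 and 688 CPM in DMM 1 to 5, and 2 of 6 were called lower over the 8 libraries. Their part in the values of Abcg1 was not tested, and in whole kidney fewer cells of a type cannot be told apart from less RNA per cell.

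Abcg4, a sterol exporter best known from brain, was at the limit of detection. Control 1 to 5 had 0.53, 0.77, 0.90, 1.76 and 0.88 CPM and DMM 1 to 5 had 0.62, 0.50, 0.45, 0 and 0.36 CPM, from at most 33 counts in a library. The count of 0 in DMM 4 allows up to 3 counts. Only control 1 lay inside the DMM range. The log2 fold change was -1.31 over 10 libraries (standard error 0.57, unadjusted p = 0.0423, edgeR adjusted p = 0.441), and -0.99 without DMM 4. Abca7, a phospholipid exporter related to Abca1, was at 30.9 ± 2.23 (SD, n = 5) CPM in control and 34.5 ± 3.96 (SD, n = 5) CPM in DMM kidneys. Abcg5 and Abcg8, which form the sterol pump of liver and gut, had at most 5 and 2 counts in a library and were not tested.

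Of 10 tested genes that act beside these exporters, 0 were called higher and 2 lower over the 8 libraries. The phospholipid transfer protein gene Pltp was at -1.41 (edgeR adjusted p = 0.0233) and the lysosomal cholesterol carrier Npc2 at -0.96 (edgeR adjusted p = 0.0136), while Apoe was at -0.79 (edgeR adjusted p = 0.47). Apoe was at 108 CPM in DMM 4 and between 1093 and 1673 CPM elsewhere, and without DMM 4 it was at -0.42 over the 7 (edgeR adjusted p = 0.00724), under 1.5-fold. Over all 10 libraries 0 of the 10 were called. Among 9 sterol-sensing genes, which include the LXR genes Nr1h2 and Nr1h3 that drive Abca1 and Abcg1, 0 were called over 8 or 10 libraries. Nr1h3 was at 0.38 and Nr1h2 at -0.18 over the 8.

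Lysosomal and vesicle transporters held the ABC gene with the highest level per length, Abca3 (chromosome 17, 24351950 to 24410201), at 39.9 CPM per kilobase. Abca3 moves phospholipid into the lamellar bodies of lung type II cells. It was measured at 255, 270, 400, 197 and 264 CPM in control 1 to 5 and 248, 375, 418, 656 and 423 CPM in DMM 1 to 5. Control 3 again lay with the DMM libraries and DMM 1 with the controls, and DMM 4 was the highest. Its log2 fold change was 0.92 over the 8 libraries (standard error 0.20, edgeR adjusted p = 0.0261), 0.61 over all 10 (standard error 0.25, unadjusted p = 0.0326, edgeR adjusted p = 0.428) and 0.72 over the 7. The call was lost when 1 more library was left out, with edgeR adjusted p of 0.0706 without control 1, 0.0659 without control 2, 0.0863 without control 4, 0.0808 without control 5, 0.0582 without DMM 3 and 0.0597 without DMM 5. A gene on the opposite strand, D330041H03Rik, overlaps exons of Abca3 and had 18 to 50 counts per library, against 3705 to 10868 for Abca3.

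The other lysosomal members were Abca2, Abca5, Abcb9, which carries peptides into lysosomes, and Abcd4, which works in lysosomal release of vitamin B12. Their log2 fold changes over 10 libraries were 0.12, 0.54, 0.07 and 0.02, with 0 calls over 8 or 10. Over 9 libraries without DMM 4 they were -0.09, 0.21, 0.11 and 0.15, so the sign of Abca2 turned. Abca5 was between 22.2 and 29.5 CPM in controls and between 22.8 and 32.5 CPM in DMM kidneys except DMM 4, at 66.1 CPM.

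Abca13 (chromosome 11, 9191942 to 9684259), whose substrate in kidney is not established, had the largest fold change of the ABC genes over the 8 libraries. Its normalized count was 114, 58.4, 229, 43.9 and 56.6 CPM in control 1 to 5 and 72.6, 131, 206, 416 and 192 CPM in DMM 1 to 5. It spread more within each group than the brush border pumps did, and control 3 was above DMM 2, DMM 3 and DMM 5. On the log2 scale the fold change was 1.79 over the 8 libraries (standard error 0.40, edgeR adjusted p = 0.0324), 1.37 without DMM 4 as well, and 1.02 over all 10 (standard error 0.53, edgeR adjusted p = 0.506), where leaving out DMM 4 alone gave 0.58. It was no longer called when 1 more library was left out, with edgeR adjusted p of 0.102 without control 2, 0.105 without control 4, 0.114 without control 5, 0.072 without DMM 3 and 0.0671 without DMM 5. Abcg3, a rodent gene related to Abcg2, was between 3.23 and 4.33 CPM in controls and at 3.33, 2.39, 1.42, 5.74 and 0.73 CPM in DMM 1 to 5. It was called lower only over the 7 libraries without DMM 4 (log2 fold change -1.33, edgeR adjusted p = 0.0189).

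In the 5 genes called over the 8 libraries, control 3 and DMM 1 were placed as in the proximal tubule markers. Over the 8, 4 of 8 proximal tubule markers were called higher, and the mean of their summed count was 1.61 log2 units higher in DMM than in control kidneys. For each 100 CPM of these markers, Abcc2 was at 6.11, 5.71, 4.30, 9.06 and 8.48 CPM in control 1 to 5 and at 7.21, 5.69, 5.66, 6.52 and 5.82 CPM in DMM 1 to 5. Abcg2 was at 7.15, 7.10, 4.44, 15.5 and 10.2 CPM in controls and at 9.40, 6.12, 5.58, 5.27 and 5.06 CPM in DMM kidneys on that scale. On this scale Abcd3 was at 5.43 to 6.31 CPM in DMM 2 to DMM 5, and both Abcg2 and Abcd3 were lower there than in all controls except control 3, at 4.59 CPM for Abcd3. In DMM 4 the scaled values rest largely on Lrp2, which made up 2504 of the 4530 CPM of the marker sum. The scale was not computed without Lrp2. Abcc2 and Abca3 overlapped between the groups, and Abca3 was at 8.09 to 29.8 CPM in controls and 8.38 to 14.5 CPM in DMM 2 to DMM 5. Abca13 was at 3.21 to 6.62 CPM in controls and at 5.71, 3.52, 5.01, 9.18 and 3.81 CPM in DMM 1 to 5, where DMM 4 was above every control. The part of tubule content in these values was not tested.

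Among other marker lists over the 8 libraries, 1 of 3 genes of the thick ascending limb, 1 of 2 of the distal convoluted tubule and 1 of 5 of the collecting duct were called higher. Fibroblast (2 of 6), mural cell (1 of 5), T cell (1 of 6) and interferon response (6 of 6) lists held genes called lower. Lists for podocytes, endothelium, B cells, neutrophils, adipocytes and injured tubules held 0 genes called by edgeR, and so did the erythroid list. All 4 tested erythroid genes (Hbb-bs the most abundant, none of the list at 0 in all libraries) were higher past the unadjusted thresholds over 10 and 8 libraries, with medians of 1.40 and 1.62. The erythroid list summed to 131, 224, 225, 154 and 147 CPM in control 1 to 5 and to 281, 212, 573, 764 and 267 CPM in DMM 1 to 5, and its part in the ABC values was not tested. Over all 10 libraries no list held a called gene.

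Mitochondrial members serve heme and iron-sulfur cluster formation. Abcb8, Abcb10 and Abcb6 had log2 fold changes of 0.28, 0.10 and -0.26 over 10 libraries, and of 0.43, 0.20 and 0.11 over the 8. For Abcb6 the sign thus turned, and without DMM 4 the value was 0.03 over 9 libraries and 0.48 over 7. Abcb6 was under 1.07 CPM everywhere, and 66.8% of its 50-base stretches are shared with a read-through gene on the same strand that had 0 counts. How reads in the shared stretches were counted is not known, so the count of Abcb6 is uncertain. Of 11 genes of heme and iron-sulfur formation 0 were called over 8 or 10 libraries.

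Among the ribosome-linked E and F members, Abcf1, a factor of translation initiation, was at 113, 114, 105, 112 and 117 CPM in control 1 to 5 and at 120, 116, 114, 120 and 106 CPM in DMM 1 to 5. These ranges overlap almost wholly, and the log2 fold change was 0.04 over 10 libraries (standard error 0.08, edgeR adjusted p = 0.858). Abcf2 and Abcf3 were at 0.03 and -0.07, and at -0.04 and -0.01 over 9 libraries without DMM 4. Abce1, which splits ribosomes after termination, was between 99.4 and 118 CPM in every library except DMM 4, at 259 CPM, and its log2 fold change was 0.39 with that library and 0.04 without it.

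Abca6, Abca8a, Abca8b and Abca9 lie side by side on chromosome 11 and encode lipid transporters of uncertain substrate. Abca9 was the only ABC gene whose groups did not overlap over all 10 libraries, where 1.95% of all tested genes did not. It was measured at 42.6, 43.4, 45.8, 39.4 and 46.0 CPM in control 1 to 5 and 55.4, 53.9, 49.8, 125 and 50 CPM in DMM 1 to 5. Each DMM library was above each control, with DMM 1 the highest after DMM 4. Its log2 fold change was 0.62 over 10 libraries (standard error 0.25, unadjusted p = 0.0289, edgeR adjusted p = 0.417), and 0.27 without DMM 4, which is under the fold threshold. Abca8a, Abca8b and Abca6 were at 0.35, 0.43 and -0.36 over 10 libraries, and at 0.35, 0.16 and -0.23 over 9 without DMM 4.

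The sulfonylurea receptor Abcc9 pairs with the potassium channel Kcnj8 in vessels. Its normalized count was 16.3, 28.1, 26.7, 46.6 and 21.9 CPM in control 1 to 5 and 26.4, 23.9, 30.8, 71.3 and 41.8 CPM in DMM 1 to 5. The groups overlapped, and the log2 fold change of 0.48 (standard error 0.34, edgeR adjusted p = 0.582) was 0.14 without DMM 4. Kcnj8 was at 0.12 and Kcnj11 at -0.06 over 10 libraries, and Abcc8 at 0.02. Over 9 libraries without DMM 4 these were at 0.23, 0.27 and -0.28, so the signs of Kcnj11 and Abcc8 turned. The bile phospholipid transporter Abcb4 had 3 to 22 counts per library. It was at 0.48, 0.35, 0.39, 0.59 and 0.47 CPM in control 1 to 5 and 0.68, 0.19, 0.74, 1.15 and 1.34 CPM in DMM 1 to 5. DMM 2 was the lowest of all libraries and the other DMM libraries were above all controls, with a log2 fold change of 0.83 (standard error 0.44, edgeR adjusted p = 0.512).

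Abca4, the retinoid transporter of photoreceptors, was also detected. Control 1 to 5 had 10.7, 8.06, 12.1, 8.14 and 6.29 CPM and DMM 1 to 5 had 8.21, 9.01, 17.2, 13.2 and 15.8 CPM. DMM 3, DMM 4 and DMM 5 were above every control and DMM 1 and DMM 2 inside their range. On the log2 scale the fold change was 0.48 over 10 libraries (standard error 0.25, edgeR adjusted p = 0.503), 0.73 over the 8 (edgeR adjusted p = 0.111) and 0.75 over the 7 (edgeR adjusted p = 0.0449). The 10 ABC genes that were not tested over 10 libraries had at most 10 counts in a library. They were Abca12, Abca14, Abca15, Abca16, Abca17, Abcb5, Abcb11, Abcc12, Abcg5 and Abcg8, and Abca15 and Abca16 had 0 counts in all libraries.

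**Figure D2:**
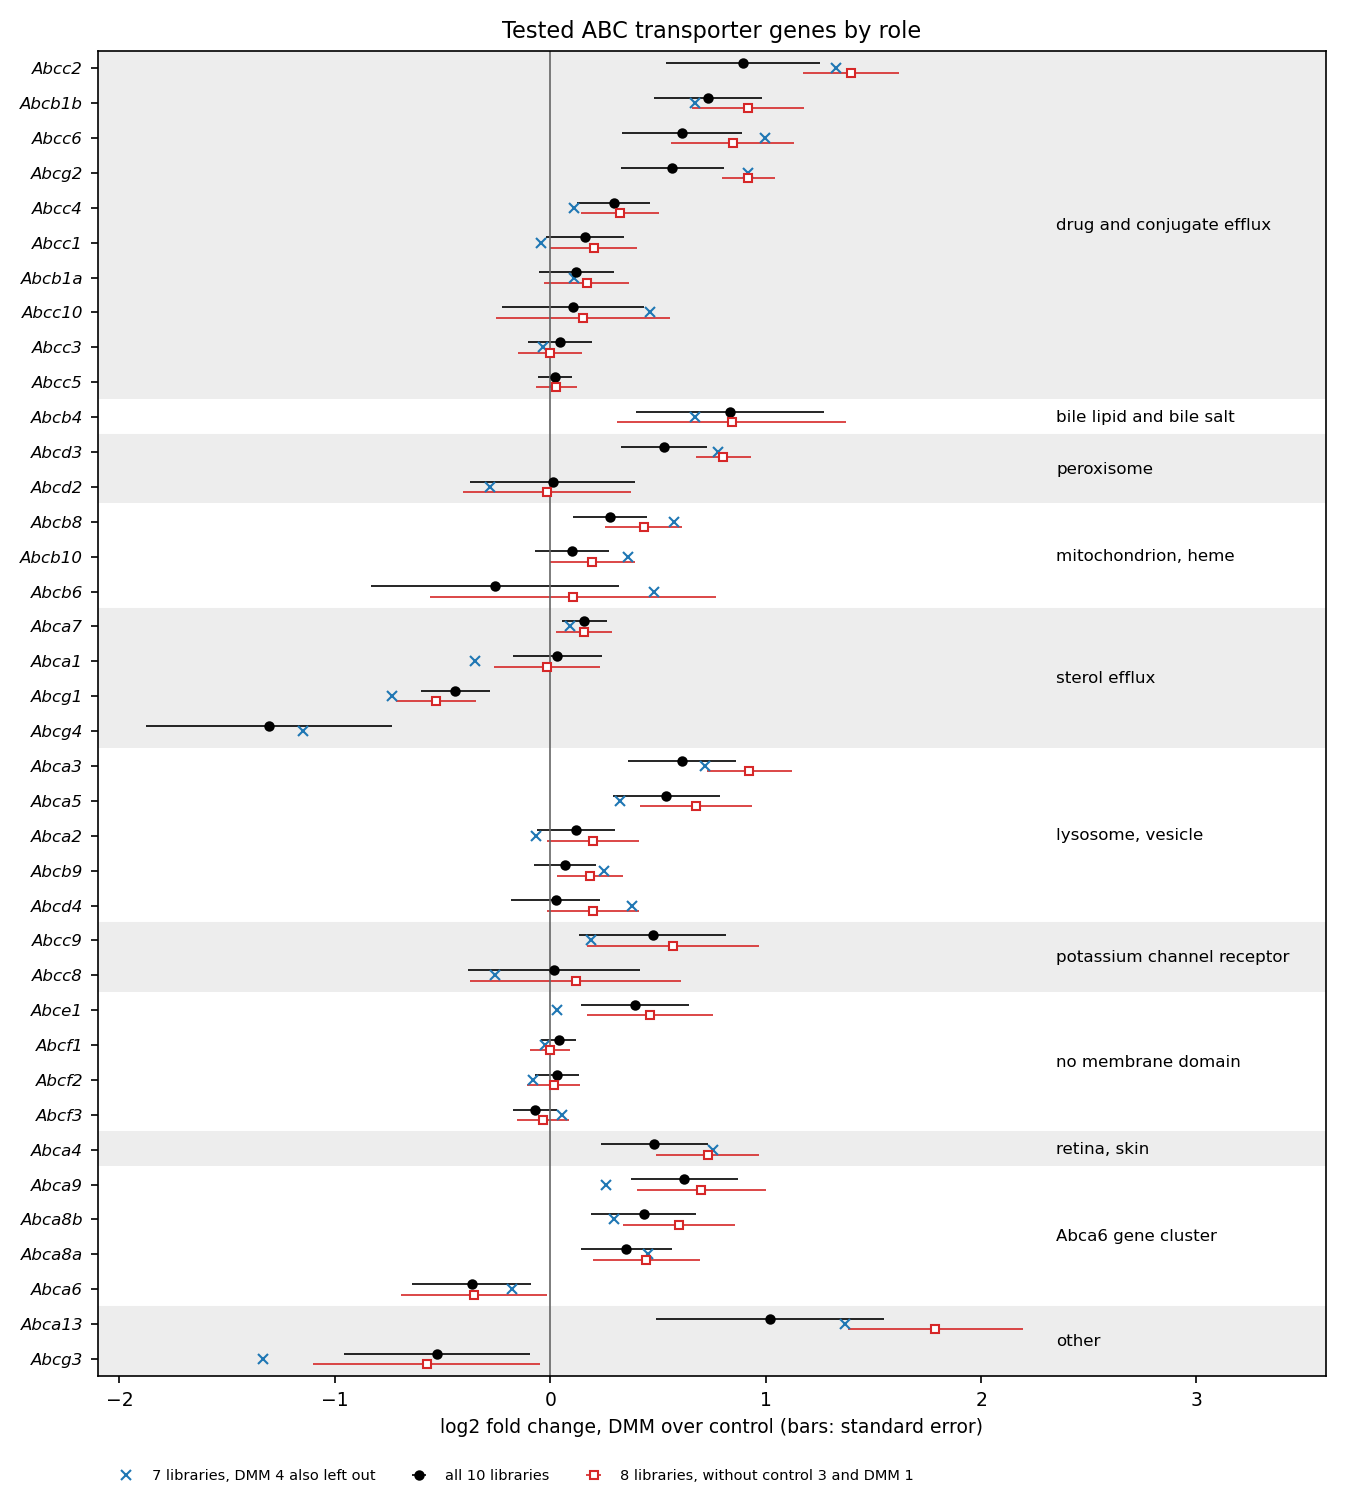
Log2 fold changes, DMM over control, of 38 of the 40 tested ABC genes, grouped by role. Black points with standard error bars are all 10 libraries, red squares with standard error bars are the 8 without control 3 and DMM 1, and blue crosses are the 7 that remain without DMM 4. Abcc2 moves from 0.89 to 1.40 between the first and the second set, and Abce1 is at 0.03 in the third.

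Of the ABC proteins with other symbols, the peptide transporter genes Tap1 and Tap2 were lower in DMM kidneys. These genes had log2 fold changes of -2.13 and -1.18 over the 8 libraries (edgeR adjusted p = 0.000889 and 0.034) and of -1.40 and -0.81 over all 10, without a call there. The summed count of Tap1, Tap2 and Cftr was 366, 333, 340, 386 and 422 CPM in control 1 to 5 and 366, 153, 153, 100 and 111 CPM in DMM 1 to 5. Here control 3 lay within the control range, as on the interferon list and unlike for Abcc2. Cftr, the chloride channel, was at 0.40 over the 8 and over all 10 libraries, and at 0.14 and 0.19 when DMM 4 was left out of each.

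DMM 4 was also compared with the other libraries by the base composition of transcripts. Across 16491 tested genes, the deviation of DMM 4 from the median library had a Pearson correlation of -0.44 with the GC content of the longest transcript and of 0.38 with its log length. The correlation with GC content lay between -0.05 and 0.16 in each of the other 9 libraries. Across the 40 tested ABC genes the correlation with GC content was -0.52 in DMM 4, and it ranged from -0.02 in DMM 5 to 0.37 in control 1 and 0.48 in control 2 among the other libraries. This is a description across genes that share 1 library and are not independent replicates. Abce1, at 40.3% GC, deviated by 1.31 log2 units in DMM 4 and Abca5 at 39.8% by 1.26. Abcc10, at 57.5% GC, deviated by -1.86. Other ABC genes did not follow this order, such as Abca3 (54.8%, deviation 1.04), Abca2 (57.5%, 0.83), Abcc8 (57.3%, 0.87) and Abca6 (43.7%, -1.01). Abcg2, at 39.2% GC, deviated by 0.45 and stood level with DMM 2, DMM 3 and DMM 5 in that library.

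**Figure D3:**
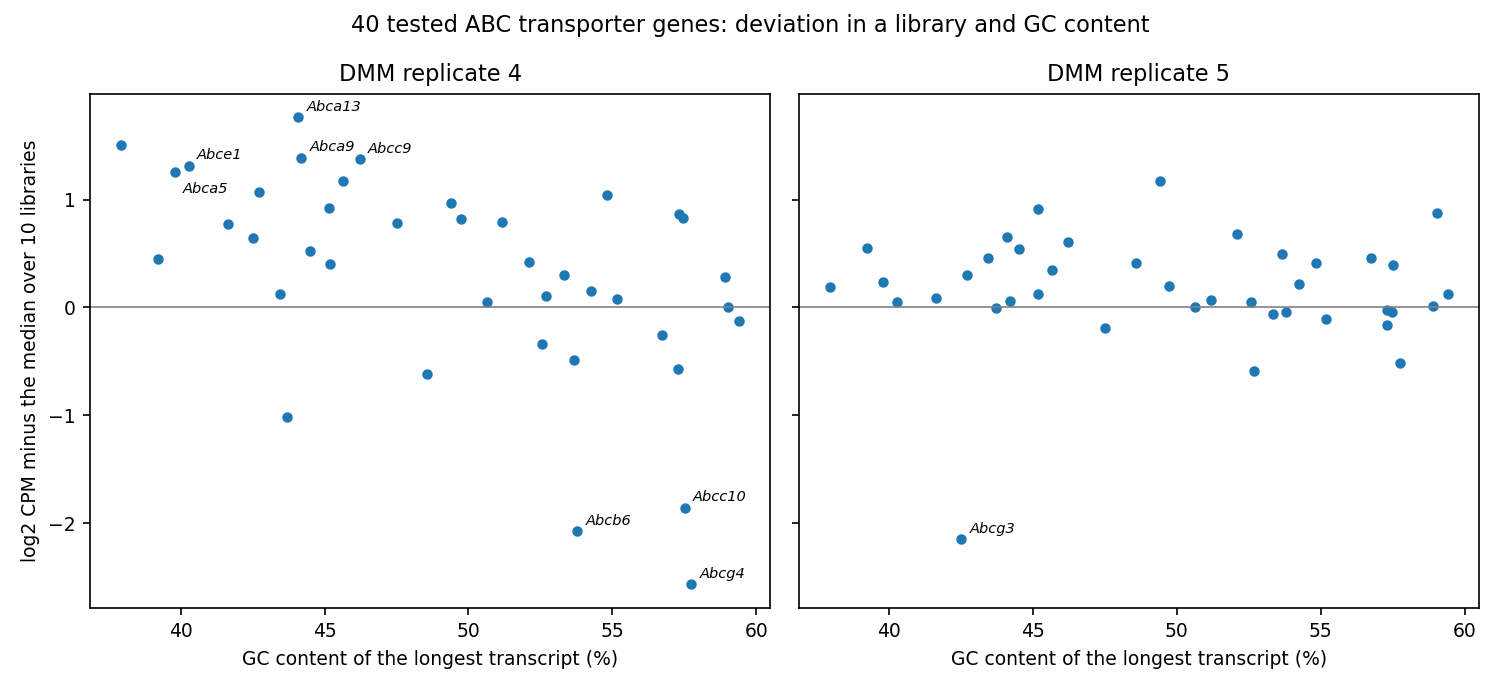
Deviation of each of 40 tested ABC genes from its median over 10 libraries (vertical axis, log2 CPM) against the GC content of its longest transcript (horizontal axis, percent), in DMM 4 on the left and DMM 5 on the right. Each point is a gene. In DMM 4 the correlation is -0.52, with Abce1 high and Abcc10 low, and in DMM 5 it is -0.02. Other libraries, not shown, reach 0.48.

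Promoters are shown for Abcc2, Abcg2 and Abcd3, the genes called over the 8 libraries in every fit that left out 1 more library. RefSeq promoters (GRCm38.p6) were matched by symbol for 38 of the 50 ABC genes, with 45 starts. Entries not matched included Abca6, Abcb8, Abcc1, Abcc3, Abcc6, Abcc8, Abcd2, Abcd4, Abcg1 and Abcg4. The 250 bases before each start were searched on both strands for 3 strings. These were AGGTCA, the core of nuclear receptor elements, GTTAAT, part of the HNF1 element, and TGACNNNGC, the core of the antioxidant response element. The opposite-strand reading of the first can overlap the last. AGGTCA was in 14% of all 32851 promoters and in 15.6% of the 45 ABC promoters, TGACNNNGC in 10.2% and 8.89%, and GTTAAT in 6.43% and 0%. AGGTCA was found for Abcc2 and at 2 of the 3 starts of Abcg2, and none of the 3 strings was found for Abcd3, Abca3 or Abca13.

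The first and the last annotated start of Abcg2 carry AGGTCA, shown in capitals on either strand, and are given with the upstream stretch of Abcd3, which has no match. The stretches lie at chr6:58584283-58584522 (+ strand, before the gene), chr6:58640296-58640545 (+ strand, in an intron) and chr3:121815303-121815552 (- strand, before the gene), and none overlaps an annotated exon. For Abcc2 both matches lie within an annotated exon, and short windows around them are given, at chr19:43782200-43782228 with TGACNNNGC in capitals and chr19:43782249-43782274 with AGGTCA in capitals, both on the + strand. A match describes these letters only.
Abcg2, first start: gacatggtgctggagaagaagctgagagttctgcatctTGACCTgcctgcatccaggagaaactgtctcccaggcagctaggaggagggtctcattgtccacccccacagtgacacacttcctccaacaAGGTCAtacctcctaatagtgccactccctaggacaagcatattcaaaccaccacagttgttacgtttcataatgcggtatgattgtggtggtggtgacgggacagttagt
Abcg2, last start: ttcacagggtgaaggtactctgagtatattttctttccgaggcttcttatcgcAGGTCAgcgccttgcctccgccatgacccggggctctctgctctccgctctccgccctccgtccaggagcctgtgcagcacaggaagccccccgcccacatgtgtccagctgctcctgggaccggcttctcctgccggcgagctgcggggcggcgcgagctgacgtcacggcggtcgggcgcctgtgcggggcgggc
Abcd3: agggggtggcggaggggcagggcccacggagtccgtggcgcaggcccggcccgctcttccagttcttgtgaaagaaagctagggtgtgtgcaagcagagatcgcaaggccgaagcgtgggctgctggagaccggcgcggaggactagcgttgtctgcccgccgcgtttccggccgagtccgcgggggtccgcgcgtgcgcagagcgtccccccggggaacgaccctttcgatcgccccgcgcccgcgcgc
Abcc2, window with TGACNNNGC: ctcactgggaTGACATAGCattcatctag
Abcc2, window with AGGTCA: tcaggatgaaAGGTCAggagacttgc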

How the data were processed

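Per the submitters' processing notes, reads were aligned with HISAT2 2.0.5, and the study's methods give the mouse genome mm10. The authors deposited the number of reads on each gene as whole counts, with FPKM values of the same libraries, a gene length, and a table of their DESeq2 comparison. The authors' group means are a signal, since each library's counts were scaled by a size factor and averaged before deposit. The fold changes and p-values of that table were not used. FPKM values were not used for tests. The counting tool, annotation release and strand setting are not given in the sources used here. The deposited group means served to find which libraries they contain.

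Counts were filtered by filterByExpr (minimum count 10), scaled by TMM and tested by the quasi-likelihood F test of edgeR 4.0.16 in R 4.3.3, with Benjamini-Hochberg adjustment over all tested genes. Calls needed an adjusted p below 0.05 and more than 1.5-fold difference. Standard errors are the log2 value over the root of F, and deviations between libraries from log2 CPM with a prior count of 2. Levels between genes were compared as CPM per kilobase of deposited gene length. Sequences and GC content came from GENCODE M21 transcripts and RefSeq promoters of GRCm38. The steps were tested on simulated data. DESeq2 1.42.0, other scalings, filters, gene sets, thresholds, a replicate block and leaving out libraries were alternatives.

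Values in every library are given for ABC genes called over 10 or 8 libraries, past an unadjusted p below 0.05 and more than 1.5-fold, or the most abundant per length of their role. Not every gene that meets this rule is described. The genes and lists were chosen with earlier results of these data known, and the weight given to leaving out DMM 4 was chosen after seeing the data. The labels give a number per sample. The p-values set the difference between groups against the spread between samples of the same group, each from 1 mouse.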

Additional observations from a re-analysis of the deposited data

Results flagged for a closer look

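Dixon's test was applied to 34 groups of 5 libraries (17 ABC genes in control and in DMM kidneys). In 4 groups a library lay farther from its neighbours than the test allows. Chance gives about 1 in 20 groups for genes chosen without regard to their values. The 17 genes were chosen with earlier results of these data known, so that rate may not hold for them. Only 2 of the 4 groups are described here. DMM 4 lay apart for Abca9, at 125 CPM against 55.4 in the next library (ratio of gap to range 0.926). DMM 1 lay apart for Abcg2, at 120 CPM against 227 in the next DMM library (ratio 0.791).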

How the results depend on the processing

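The number of ABC genes called over 10 libraries was 0 with DESeq2, other scalings and filters, protein-coding genes alone, no minimum fold change, the replicate block, and without any single library, although without DMM 1 alone 50 of all tested genes were called higher and 436 lower. It was 5 over the 8 libraries and 6 with DESeq2 on them (beside 749 higher and 911 lower of all 20027 tested genes), and 3 to 10 when 1 of the 8 was also left out. The number past an unadjusted p, 6 over 10 libraries, was 12 over the 8, 13 with DESeq2 on them, 3 with library size alone, 2 to 12 without a single library and 9 to 14 within the 8. With the replicate number as a block it was 2, and 0 were called. The numbers are not known to pair mice, since deviations of libraries with the same number had correlations of -0.06, 0.08, 0.34, 0.12 and -0.22, and 1 of the 5 numbers was matched best by its own. The 5 calls over the 8 libraries became 0 over all 10. Other scalings, filters and gene sets on the 8, chosen after seeing the data, gave 5 or 6. The median log2 fold change of ABC genes stayed above 0, at 0.0511 with library size alone, 0.11 to 0.22 without a single library and 0.21 to 0.31 within the 8. Abca1 and Abcf1, close to 0, changed sign under some alternatives. Abca1 was at -0.0153 over the 8 libraries, -0.0175 with DESeq2 on them, -0.0791 with library size alone, -0.0272 with the block, -0.21 to 0.13 without a single library and -0.35 to 0.11 within the 8. Abcf1 was at -0.0469 with library size alone, 0.0154 to 0.0661 without a single library and -0.0247 to 0.0321 within the 8. The cause of these shifts was not tested. Abcg4 and Abcb4 had few counts, and what depth added to their spread was not tested.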
